A study of Mus musculus with 9 samples.

Results

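The genes described here are the chemokines and chemokine receptors of cells rinsed from the mouse peritoneal cavity. They were chosen by name. The set holds every protein-coding gene named Ccl, Cxcl, Xcl, Cx3cl, Ccr, Cxcr, Cx3cr or Ackr with a number, apart from Ccl5, Ccl24, Ccr3, Ccr7, Cxcr2 and Cxcr3, which the choice leaves out. This gave 49 of the 20461 protein-coding genes in the deposited table, 32 ligands and 17 receptors. The 4 diabetic samples came from APOE-/- mice made diabetic with streptozotocin, which kills the insulin-producing cells of the pancreas. They were injected with 40 mg/kg daily for 5 days, starting at 8 weeks of age. The 5 control samples came from APOE-/- mice given citrate buffer, also over 5 days and starting at 8 weeks of age. All mice of both groups lacked Apoe, ate a western diet for 8 weeks and received 1.5 mL of 3% thioglycollate, a broth that provokes sterile inflammation there. After 3 days the cavity was rinsed with 10 mL of buffer and RNA of the spun-down cells was sequenced. The labels name no sort or adherence step. Nor do they say if mice were pooled, and the p-values therefore rest on the spread among the 9 samples.

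Chemokines are small secreted proteins that guide leukocytes along gradients. They act on G protein-coupled receptors, which signal through Gi proteins, phosphoinositide 3-kinase and small GTPases to the cytoskeleton, while atypical receptors bind chemokines without this signal and clear them. In an inflamed peritoneum, Ccl2 and its relatives recruit Ccr2-bearing monocytes, the Cxcl1 and Cxcl2 type recruits neutrophils, and Cxcl13 draws Cxcr5-bearing B cells.

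Each library held 14156421 to 16169060 reads in genes. The samples are labelled peritoneal macrophages, and macrophage markers were high, with Cd68 at a mean of 1052 ± 278 FPKM (reads scaled by gene length and library depth) in diabetic samples (SD, n = 4) and 1109 ± 212 FPKM in control samples (SD, n = 5). The samples also held other cells. The 15 T cell markers summed to 226 to 709 FPKM in diabetic samples and to 127 to 183 FPKM in control samples, and all 14 tested had positive log2 fold changes, 13 of them called. The tested marker not called, Cd2, made up much of the control sums, at 73.9 to 118 FPKM. The 12 B cell markers summed to 712 to 1675 FPKM in diabetic and 517 to 1114 FPKM in control samples (all 11 tested had positive log2 fold changes, 3 of them called), and the 10 neutrophil markers to 126 to 538 FPKM in diabetic and 117 to 1143 FPKM in control samples (0 of 7 called). In such bulk RNA, fewer cells of a type and less RNA per cell cannot be told apart.

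Few of the chosen genes passed the test. Of the 49 genes, 26 reached an FPKM of 1 in at least 4 samples and were tested, 17 ligands and 9 receptors. Only Cxcr6 was called, higher in diabetic samples, at a Benjamini-Hochberg adjusted p below 0.05 with limma on log2(FPKM + 1). That is 3.85% of the tested members, against 4.76% of all 11193 genes tested (2.68% called higher and 2.08% called lower). At an unadjusted p below 0.05 stood 10 of the 26 members (38.5%), against 22.4% of all genes tested. No ligand passed: 5 of the 17 had an unadjusted p below 0.05, 4 with higher and 1 with lower values in diabetic samples, and limma voom on whole reads called 0. The diabetic and control samples did not overlap for Ccl7, Cxcr4 and Cxcr6, 11.5% of the tested members, all with higher diabetic values, against 9.42% of all genes tested (4.82% with higher and 4.6% with lower diabetic values). The median log2 fold change was 0.065 over the tested ligands and 0.52 over the tested receptors, against -0.013 over all genes. Control 2 weighed on both medians: without it they were -0.097 and 0.26. The ligand median was also negative without diabetic 1, at -0.029, and with sample weights, at -0.070.

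**Figure D1:**
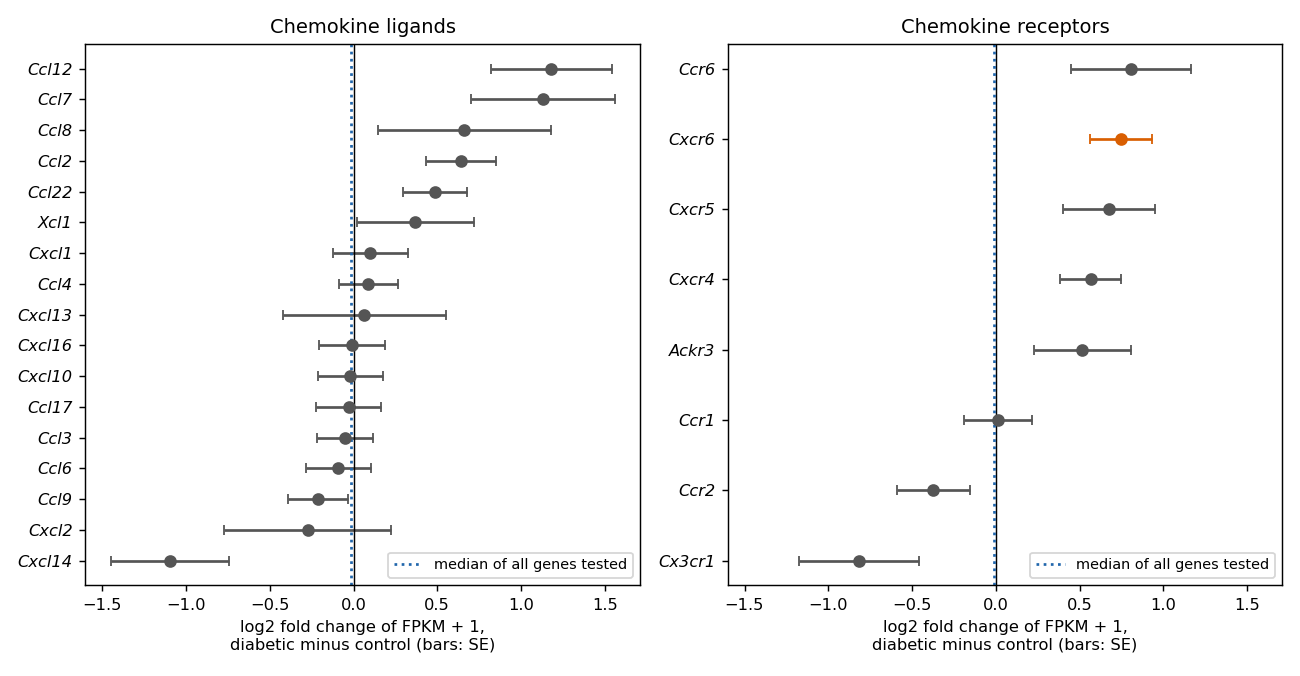
Log2 fold change of FPKM + 1, diabetic minus control, for the 17 tested ligands (left) and 8 of the 9 tested receptors (right); bars are the standard error, the dotted line is the median of all genes tested (-0.013), and the orange point is Cxcr6, the member that passed. Ccl12, Ccl7, Ccl8 and Ccl2 stand at the top of the ligands and Cxcl14 at the bottom, and the receptors run from 0.81 for Ccr6 to -0.81 for Cx3cr1.

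Of the 6 names left out, Ccl5, Ccr7 and Cxcr3 were called higher in diabetic samples. Ccl24, Ccr3 and Cxcr2 had lower diabetic means and were not called (adjusted p = 0.16, 0.090 and 0.77, limma). All 6 passed the filter. With them the calls would be 1 ligand and 3 receptors higher, so the low count of calls holds for the chosen members only.

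The levels of the ligands were very unequal. Ccl6 and Ccl9, rodent CC chemokines that act on Ccr1, made up 90.8% to 93.0% of the summed FPKM of the 32 ligands in diabetic samples and 91.1% to 96.8% in control samples. Ccl6 stood at 2457, 2840, 3428 and 2326 FPKM in diabetic 1 to 4 and at 2970, 3449, 1924, 3459 and 3055 FPKM in control 1 to 5. Ccl9 stood at 684, 872, 1076 and 690.0 FPKM in diabetic 1 to 4 and at 1020.5, 1006, 684, 1075 and 993 FPKM in control 1 to 5. Control 3 was the low control sample for both genes, and the groups overlapped. Their log2 fold changes were -0.091 (SE 0.19, adjusted p = 0.82) and -0.21 (SE 0.18, adjusted p = 0.52). The lowest Ccl6 value lay above the highest Ccl9 value, and the lowest Ccl9 value above the highest of Ccl3, the next ligand at a mean of 50.1 FPKM over the 9 samples. Below Ccl9, the ranges of every pair of neighbours in the order overlapped. Ccl3, Cxcl16, Ccl2, Ccl4, Ccl7, Ccl8, Cxcl13 and Cxcl2 followed at means of 50.1 to 18.5 FPKM, and the other 7 tested ligands at 9.27 FPKM (Ccl22) or less. Without Ccl6 and Ccl9 the ligands summed to 307 ± 47.7 FPKM in diabetic samples (SD, n = 4) and 264 ± 77.6 FPKM in control samples (SD, n = 5), and control 2 was the lowest at 149 FPKM.

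**Figure D2:**
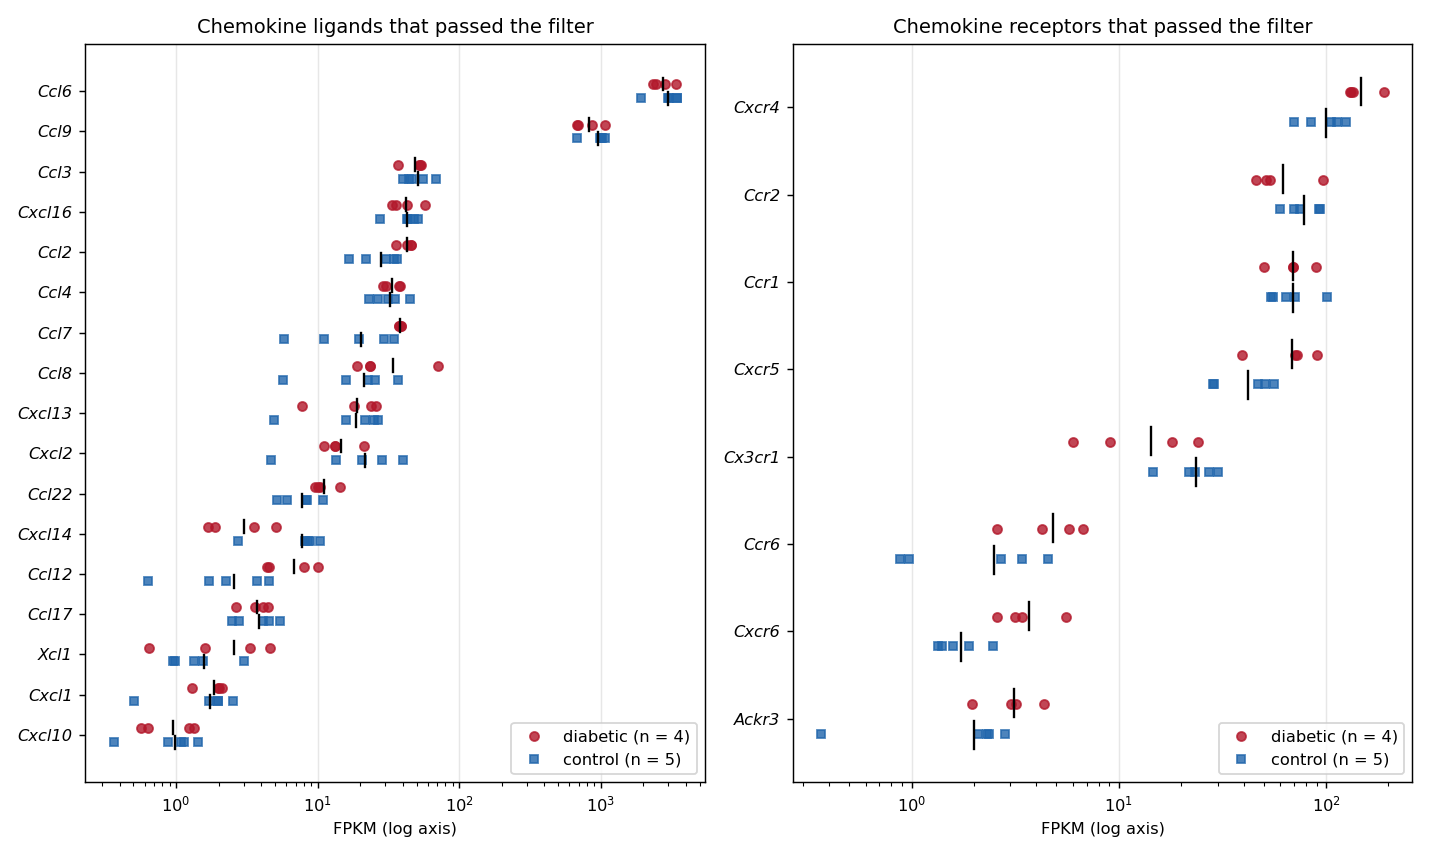
FPKM on a log axis of the 17 tested ligands (left) and 8 of the 9 tested receptors (right), ordered by their mean over the 9 samples; red circles are the 4 diabetic samples, blue squares the 5 control samples and black ticks the group means. Ccl6 and Ccl9 lie apart from every other ligand, while neighbours among the receptors shown overlap.

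The sequences just before the start of 6 genes are shown, because the CC ligands lie in neighbouring blocks on chromosome 11 that are compared with each other, because Cxcl2 stands for the neutrophil-attracting ligands, and because Cxcr6 is the member that passed. They are the 150 bases before the start in RefSeq's GRCm38.p6, read 5′ to 3′ on the gene's strand, and capitals mark TATAAA (the core of a TATA box) or a form of the NF-kappaB motif (GGGA, any pair of bases, TTCC) on either strand.
Ccl12 (chr11:82101695-82101844, plus strand): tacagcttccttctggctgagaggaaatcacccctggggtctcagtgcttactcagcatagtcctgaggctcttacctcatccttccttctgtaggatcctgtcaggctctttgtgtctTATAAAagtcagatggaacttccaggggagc
Ccl8 (chr11:82115035-82115184, plus strand): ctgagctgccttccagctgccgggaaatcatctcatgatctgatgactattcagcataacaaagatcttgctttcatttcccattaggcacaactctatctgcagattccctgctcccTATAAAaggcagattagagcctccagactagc
Ccl6 (chr11:83593088-83593237, minus strand): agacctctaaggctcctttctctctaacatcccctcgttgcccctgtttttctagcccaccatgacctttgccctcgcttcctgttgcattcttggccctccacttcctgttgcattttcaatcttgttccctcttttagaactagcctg
Ccl9 (chr11:83578637-83578786, minus strand): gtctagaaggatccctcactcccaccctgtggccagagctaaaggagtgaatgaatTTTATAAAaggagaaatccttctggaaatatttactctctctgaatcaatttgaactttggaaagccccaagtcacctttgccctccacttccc
Cxcl2 (chr5:90903749-90903898, plus strand): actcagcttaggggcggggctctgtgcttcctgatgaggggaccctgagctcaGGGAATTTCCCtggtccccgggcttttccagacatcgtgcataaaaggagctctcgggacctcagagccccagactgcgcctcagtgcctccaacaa
Cxcr6 (chr9:123806327-123806476, plus strand): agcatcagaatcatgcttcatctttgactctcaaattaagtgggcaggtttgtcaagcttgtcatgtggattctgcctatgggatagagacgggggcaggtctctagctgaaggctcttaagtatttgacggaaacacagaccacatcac

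A promoter window was found for 38 of the 49 members, from 250 bases before to 50 after the start. TATAAA was present in 10 of 24 ligand genes (41.7%) and 3 of 14 receptor genes (21.4%), against 15.7% of all 27025 genes with a window. The NF-kappaB form was present in 5 ligand genes (20.8%), Ccl1, Cxcl1, Cxcl2, Cxcl3 and Cxcl10, and in 0 receptor genes, against 1.63% of all genes, and the pair of motifs overlapped in 0 windows. In Ccl12 and Ccl8 the TATAAA letters stood at about the same distance from the start, at -31 to -26 and at -32 to -27. A match of letters is a description and not a binding site.

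The monocyte-attracting ligands that are neighbours at one block of chromosome 11 all had positive log2 fold changes, though none passed. In the positions of the deposited table the block starts with Ccl2 at 85777797, followed by Ccl7 at 85787932, Ccl11, Ccl12 at 85848941, Ccl8 at 85865131 and Ccl1. Ccl2, the main ligand of Ccr2, had 45.8, 45.6, 42.9 and 35.9 FPKM in diabetic 1 to 4, against 36.1, 16.6, 22.0, 30.2 and 34.5 FPKM in control 1 to 5. Only diabetic 4 lay below a control sample, control 1 (log2 fold change 0.64, SE 0.21, adjusted p = 0.10). Ccl7, another monocyte attractant, had 37.6, 37.4, 39.0 and 38.7 FPKM in diabetic 1 to 4, against 34.8, 5.77, 11.1, 19.6 and 29.5 FPKM in control 1 to 5. The diabetic values lay close together and above every control sample, whose spread was wide. Its log2 fold change was 1.13 (SE 0.43, adjusted p = 0.16). Ccl12, a rodent ligand of Ccr2, was lower in level and had 10.1, 4.54, 8.07 and 4.42 FPKM in diabetic 1 to 4, against 3.72, 0.632, 1.70, 2.25 and 4.51 FPKM in control 1 to 5. Diabetic 4 fell just under control 5, and the log2 fold change of 1.18 (SE 0.36, adjusted p = 0.093) was the largest among the tested members. Ccl8, which in the mouse acts on Ccr8, had 23.4, 19.0, 71.1 and 23.6 FPKM in diabetic 1 to 4, against 22.7, 5.72, 15.9, 25.2 and 36.7 FPKM in control 1 to 5. Diabetic 3 alone lay above all control samples (log2 fold change 0.66, SE 0.52, adjusted p = 0.49).

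Control 2 was the lowest of the 9 samples in all 4 of these genes. Without it, the log2 fold changes were 0.48 for Ccl2, 0.78 for Ccl7, 0.93 for Ccl12 and 0.28 for Ccl8 (adjusted p = 0.12, 0.17, 0.11 and 0.74, limma). Without diabetic 3, Ccl8 was at 0.25. The remaining genes of the block, Ccl11 and Ccl1, were almost silent, with 0 and 1 reads over the diabetic libraries and 1 and 5 over the control libraries.

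The next block of CC ligands on the same chromosome, which holds Ccl9, Ccl6, Ccl3 and Ccl4 from position 87518258, showed smaller differences, between -0.21 and 0.089 on the log2 scale. Ccl3, a ligand of Ccr1, had 51.7, 52.9, 53.7 and 37.2 FPKM in diabetic 1 to 4, against 68.4, 43.9, 46.6, 40.4 and 55.8 FPKM in control 1 to 5. Its 95% interval of the log2 fold change was -0.42 to 0.32. Ccl4, an attractant of macrophages and T cells, had 37.4, 29.2, 38.2 and 30.2 FPKM in diabetic 1 to 4, against 44.7, 22.9, 31.4, 26.8 and 35.5 FPKM in control 1 to 5. Its interval was -0.30 to 0.48. The diabetic values of both genes, apart from Ccl3 in diabetic 4, fell inside the control range.

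**Figure D3:**
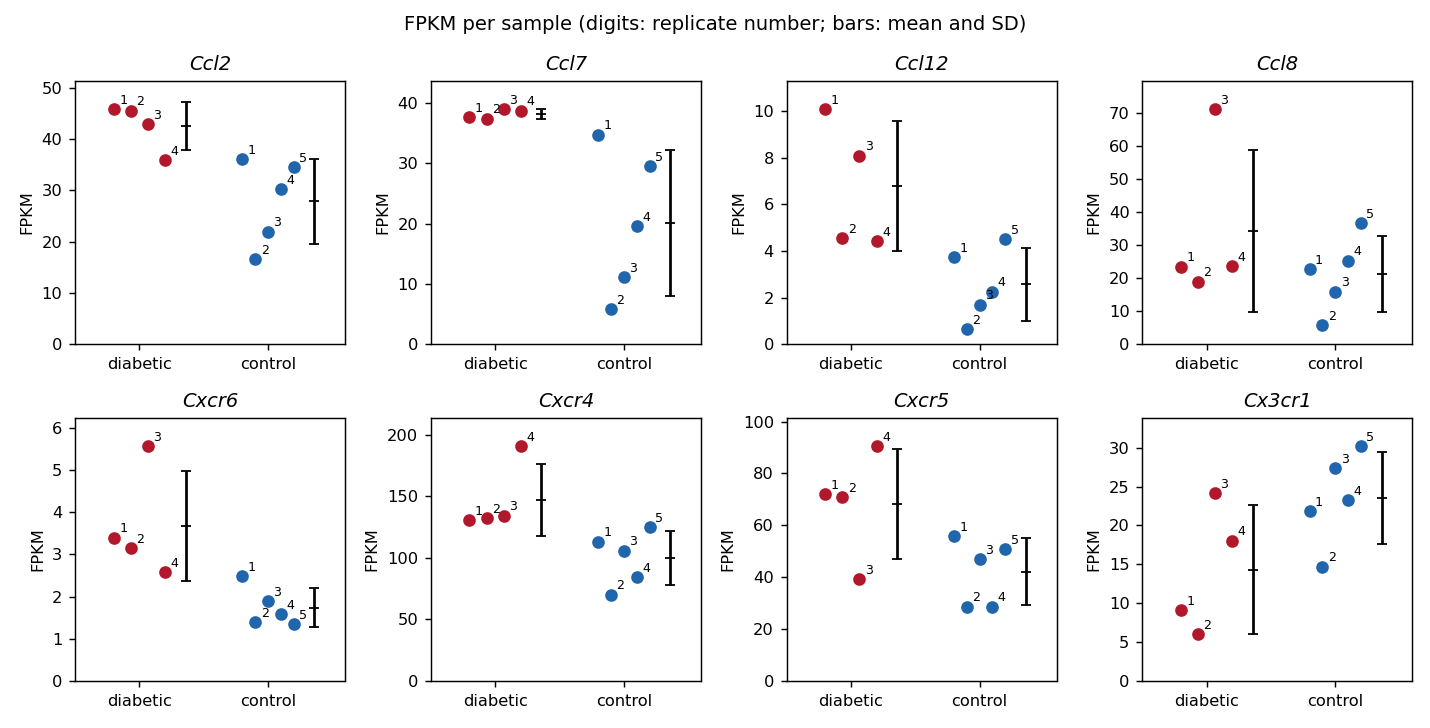
FPKM per sample of the 4 neighbouring CC ligands (top) and of 4 receptors (bottom), diabetic in red and control in blue, with the replicate number beside each point and the mean and SD as bars. Ccl7, Cxcr6 and Cxcr4 have every diabetic sample above every control sample; control 2 is lowest in all 4 ligands.

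The neutrophil-attracting ligands did not pass. Cxcl2 had 11.1, 13.3, 13.2 and 21.4 FPKM in diabetic 1 to 4, against 28.6, 4.66, 20.6, 13.5 and 39.9 FPKM in control 1 to 5. The control samples spanned the diabetic ones on both sides (log2 fold change -0.27, SE 0.50, adjusted p = 0.79). Control 5 and control 1 led both Cxcl2 and the neutrophil marker sum, with sums of 1143 and 563 FPKM. Low sums did not go with a single Cxcl2 level. Control 2, control 4 and diabetic 1 had sums of 117, 121 and 126 FPKM, with Cxcl2 at 4.66, 13.5 and 11.1 FPKM. A ratio of Cxcl2 to the summed neutrophil markers was computed after the values were seen. In percent it was 5.54 ± 2.23 in diabetic samples (SD, n = 4) and 5.63 ± 3.17 in control samples (SD, n = 5). The ratio ran from 3.49 in control 5 to 11.2 in control 4. The part of neutrophils in the Cxcl2 values was not tested. Cxcl1 was lower in level, at 1.85 ± 0.373 FPKM in diabetic samples (SD, n = 4) and 1.74 ± 0.755 FPKM in control samples (SD, n = 5). Cxcl3 and Cxcl5 stayed under the filter, and Cxcl15 had 0 reads in all 9 libraries.

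Among the ligands that guide lymphocytes and dendritic cells, Cxcl13 varied within both groups. It had 25.8, 23.8, 18.1 and 7.69 FPKM in diabetic 1 to 4, against 21.6, 4.90, 24.9, 15.9 and 26.6 FPKM in control 1 to 5. Diabetic 4 and control 2 were the lowest samples of their groups (log2 fold change 0.065, SE 0.49, adjusted p = 0.95, limma). Cxcl14, a chemokine of epithelia and stroma, had 3.52, 1.67, 1.88 and 5.06 FPKM in diabetic 1 to 4, against 8.55, 2.72, 8.83, 8.09 and 10.4 FPKM in control 1 to 5. All diabetic samples lay below all control samples but control 2. The log2 fold change was -1.10 (SE 0.35, adjusted p = 0.10), and without control 2 it was -1.38 and passed (adjusted p = 0.023; 0.023 to 0.26 over all alternatives). The 11 mesothelial and stromal markers, of which 0 of 8 tested were called, summed to 28.6 to 57.4 FPKM in diabetic and 19.0 to 47.9 FPKM in control samples. The sum mixes directions: 6 tested markers had positive log2 fold changes and 2 negative ones, Col1a1 (-0.45) and Col3a1 (-0.31). The part of these cells in the Cxcl14 values was not tested.

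Ccl22, the dendritic cell and macrophage ligand of Ccr4, had 14.4, 10.1, 10.4 and 9.60 FPKM in diabetic 1 to 4, against 8.39, 6.11, 8.34, 5.18 and 10.9 FPKM in control 1 to 5. Only control 5 overlapped with the diabetic samples (log2 fold change 0.49, SE 0.19, adjusted p = 0.16). The 9 dendritic cell markers summed to 38.2 to 73.4 FPKM in diabetic and 55.2 to 103 FPKM in control samples. Of 4 tested, 0 were called higher and 1, Batf3, lower (log2 fold change -1.14). Cd209a was at -0.027, while Fscn1 and Flt3 were at 0.46 and 0.40. The sum of 103 FPKM was that of control 2, where Cd209a, the marker with the highest mean, had 62.2 FPKM. The part of dendritic cells in the Ccl22 values was not tested. Ccl17, which lies close to Ccl22 on chromosome 8 and shares its receptor, had 3.70 ± 0.787 FPKM in diabetic samples (SD, n = 4) and 3.87 ± 1.23 FPKM in control samples (SD, n = 5). Cxcl16, the membrane-bound ligand of Cxcr6 and a scavenger receptor for oxidised lipoprotein, had 43.1, 33.4, 57.2 and 35.5 FPKM in diabetic 1 to 4, against 42.7, 27.8, 51.0, 47.8 and 43.4 FPKM in control 1 to 5. The groups overlapped through most of their range, and the 95% interval of its log2 fold change was -0.44 to 0.42. Xcl1, a ligand made by cytotoxic lymphocytes, had 2.55 ± 1.77 FPKM in diabetic samples (SD, n = 4) and 1.57 ± 0.839 FPKM in control samples (SD, n = 5). The interferon-induced Cxcl10 had 0.945 ± 0.400 FPKM in diabetic samples and 0.977 ± 0.399 FPKM in control samples (SD, n = 4 and 5), and Cxcl9, from 7 to 36 reads per library, stayed under the filter.

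**Figure D4:**
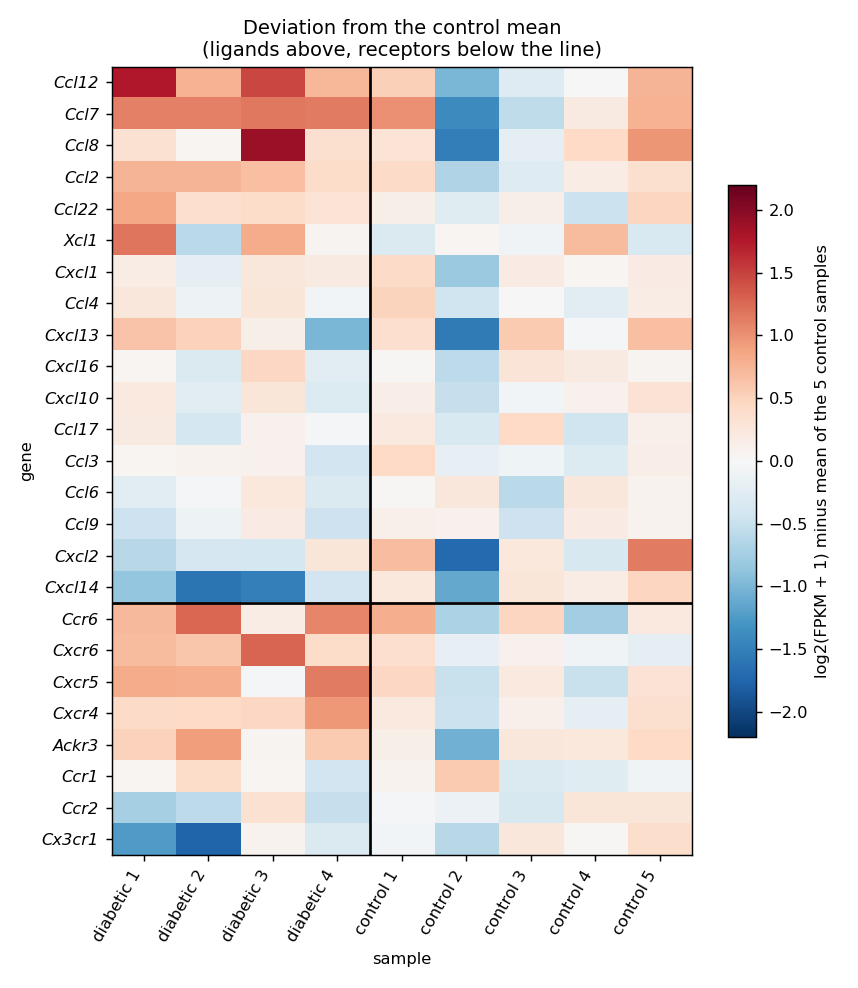
Log2(FPKM + 1) of 25 of the 26 tested members in each sample minus the mean of the 5 control samples, diabetic samples left of the vertical line and ligands above the horizontal one; red is above and blue below the control mean. Control 2 is blue in most ligands, and diabetic 3 differs from the other diabetic samples in Ccl8, Cxcr5 and Ccr2.

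The lowest and highest values of the tested members were not evenly spread over the 9 samples. Control 2 was the lowest of all samples in 12 of the 26 tested members: Ccl2, Ccl4, Ccl7, Ccl8, Ccl12, Cxcl1, Cxcl2, Cxcl10, Cxcl13, Cxcl16, Ackr3 and Cxcr4. In Ccr1 it was the highest. Among the diabetic samples, diabetic 3 was the highest in 13 members. The same counts over all genes tested were not made, so these counts are not shown to be particular to the members. Control 2 also had the fewest genes of any kind at an FPKM of at least 1, 10658, against up to 11219 in the other samples.

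Among the receptors, Cxcr6, the receptor for Cxcl16 on effector T cells and NKT cells, rose in diabetic samples. It had 3.39, 3.15, 5.57 and 2.57 FPKM in diabetic 1 to 4, against 2.48, 1.40, 1.89, 1.58 and 1.34 FPKM in control 1 to 5, from 39 to 151 reads per library. Every diabetic sample lay above every control sample, with diabetic 4 and control 1 close together. The log2 fold change was 0.75 (SE 0.18, 95% interval 0.34 to 1.15, adjusted p = 0.045, limma). The call was not stable. It ended with no filter (adjusted p = 0.10), with TPM rescaling (adjusted p = 0.055), with quantile normalization (adjusted p = 0.058) and with the replicate number as a block (adjusted p = 0.11). It also ended without diabetic 1 (adjusted p = 0.093), diabetic 2 (adjusted p = 0.097), diabetic 4 (adjusted p = 0.065), control 2 (adjusted p = 0.077), control 3 (adjusted p = 0.088), control 4 (adjusted p = 0.083) or control 5 (adjusted p = 0.082), while the log2 fold change stayed between 0.57 and 0.86 over the 9 fits that left out 1 sample.

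T cell markers were also higher in the diabetic samples, but not in the order of Cxcr6. Diabetic 3 had the highest Cxcr6 and, at 226 FPKM, the lowest T cell marker sum of the diabetic samples, while diabetic 2 had the highest marker sum, at 709 FPKM. As a percent of the T cell marker sum, Cxcr6 was 0.751, 0.444, 2.47 and 0.394 in diabetic 1 to 4 and between 0.920 and 1.39 in control samples. Cd2 weighed heavily on that sum, at 145, 163, 87.2 and 167 FPKM in diabetic 1 to 4 and 73.9 to 118 FPKM in control samples. The ratio therefore depends on this marker, and it was not computed without Cd2. The 8 natural killer cell markers summed to 85.8 to 118 FPKM in diabetic and 42.4 to 86.8 FPKM in control samples, with 2 of 8 called higher. The part of these cells in the result was not tested.

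Cxcr4, the receptor for Cxcl12 on most leukocytes, had the highest mean FPKM of the member receptors over the 9 samples, though Ccr1 was above it in control 2 and Ccr2 in control 4. It had 130.3, 132, 134 and 191 FPKM in diabetic 1 to 4, against 113, 70.1, 106, 84.5 and 125 FPKM in control 1 to 5. The groups did not overlap, though diabetic 1 and control 5 were close. The log2 fold change was 0.57 (SE 0.18, adjusted p = 0.10) and did not pass in any alternative (adjusted p = 0.072 to 0.25). Its ligand Cxcl12 was almost absent from these cells, with 56 reads over the diabetic and 42 over the control libraries. Ackr3, the atypical receptor that removes Cxcl12, had 3.02, 4.35, 1.96 and 3.20 FPKM in diabetic 1 to 4, against 2.10, 0.365, 2.36, 2.32 and 2.82 FPKM in control 1 to 5. Control 2 stood apart, and the log2 fold change of 0.52 (SE 0.29, adjusted p = 0.33) was 0.26 without it.

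Cxcr5, the receptor with which B cells follow Cxcl13, had 72.1, 70.9, 39.2 and 90.6 FPKM in diabetic 1 to 4, against 55.9, 28.7, 47.0, 28.6 and 50.7 FPKM in control 1 to 5. Diabetic 3 fell inside the control range and the other diabetic samples above it. The log2 fold change was 0.67 (SE 0.27, adjusted p = 0.18), and without diabetic 3 it was 0.92 and passed (adjusted p = 0.040; 0.040 to 0.39 over all alternatives). Cxcr5 was higher in samples with higher B cell marker sums, though not in exact order. Diabetic 2 had a higher sum than diabetic 1 (1553 against 1348 FPKM) but slightly lower Cxcr5. Control 4 had a higher sum than control 2 (642 against 517 FPKM), also with slightly lower Cxcr5. As a percent of their sum, a ratio computed after the values were seen, it was 5.35, 4.57, 5.51 and 5.41 in diabetic 1 to 4 and 5.02, 5.55, 4.80, 4.45 and 5.09 in control 1 to 5. The diabetic values of this ratio lay within the control range. The part of B cells in the Cxcr5 values was not tested. Ccr6, a receptor of B cells and helper T cells for Ccl20, had 4.27, 6.72, 2.58 and 5.75 FPKM in diabetic 1 to 4, against 4.54, 0.971, 3.42, 0.878 and 2.69 FPKM in control 1 to 5. Control 2 and control 4, the low ones, also had the lowest B cell marker sums, 517 and 642 FPKM (log2 fold change 0.81, SE 0.36, adjusted p = 0.22). As a percent of that sum, Ccr6 was 0.316, 0.432, 0.363 and 0.343 in diabetic 1 to 4 and 0.408, 0.188, 0.349, 0.137 and 0.270 in control 1 to 5, so control 2 and control 4 were low in this ratio too. Ccl20 itself had 0 reads in all 9 libraries, which allows up to 0.150 FPKM for 3 reads in a library.

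Among the receptors of monocytes and macrophages, none passed. Ccr2, which brings monocytes out of the bone marrow and into tissue, had 45.9, 51.2, 97.1 and 53.7 FPKM in diabetic 1 to 4, against 74.7, 69.9, 59.9, 92.8 and 93.2 FPKM in control 1 to 5. Diabetic 1, 2 and 4 lay below every control sample and diabetic 3 above them all. The log2 fold change was -0.37 (SE 0.22, adjusted p = 0.34), and without diabetic 3 it was -0.61 and passed (adjusted p = 0.035; 0.035 to 0.59 over all alternatives). Ccr1, the receptor of Ccl6, Ccl9 and Ccl3, had 69.4, 89.4, 69.4 and 49.9 FPKM in diabetic 1 to 4, against 71.1, 101, 54.2, 55.7 and 64.3 FPKM in control 1 to 5. The groups overlapped (log2 fold change 0.014, SE 0.20, 95% interval -0.44 to 0.46).

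Cx3cr1, the fractalkine receptor of patrolling monocytes and resident macrophages, had 9.08, 5.99, 24.2 and 18.0 FPKM in diabetic 1 to 4, against 21.8, 14.7, 27.4, 23.2 and 30.2 FPKM in control 1 to 5. Diabetic 1 and 2 lay below every control sample, and diabetic 3 and 4 within the control range. Its log2 fold change was -0.81 (SE 0.36, adjusted p = 0.22), and it passed with sample weights (-1.13, adjusted p = 0.039; 0.039 to 0.45 over all alternatives). The ligand Cx3cl1 was under the filter, with 44 reads over the diabetic and 41 over the control libraries.

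The 7 macrophage markers found summed to 1920, 1966, 2642 and 1540 FPKM in diabetic 1 to 4 and to 2000 to 2693 FPKM in control samples, and 1 of them, Mrc1, was called lower. The 7 monocyte markers found summed to 314 to 412 FPKM in diabetic and 172 to 298 FPKM in control samples, and 2 of them were called higher. Diabetic 3, the high diabetic sample for Ccr2, was also the high one for the macrophage markers. Other samples did not keep this order. Control 2 had the highest marker sum, 2693 FPKM, with Ccr2 at 69.9 FPKM, while control 5, with a sum of 2002 FPKM, had the highest control Ccr2, 93.2 FPKM. Diabetic 4 had the lowest sum but more Ccr2 than diabetic 1 and 2. The part of macrophages in the Ccr2 values was not tested. As a percent of the macrophage marker sum, Ccr2 was 3.04 ± 0.637 in diabetic samples (SD, n = 4) and 3.55 ± 0.929 in control samples (SD, n = 5).

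**Figure D5:**
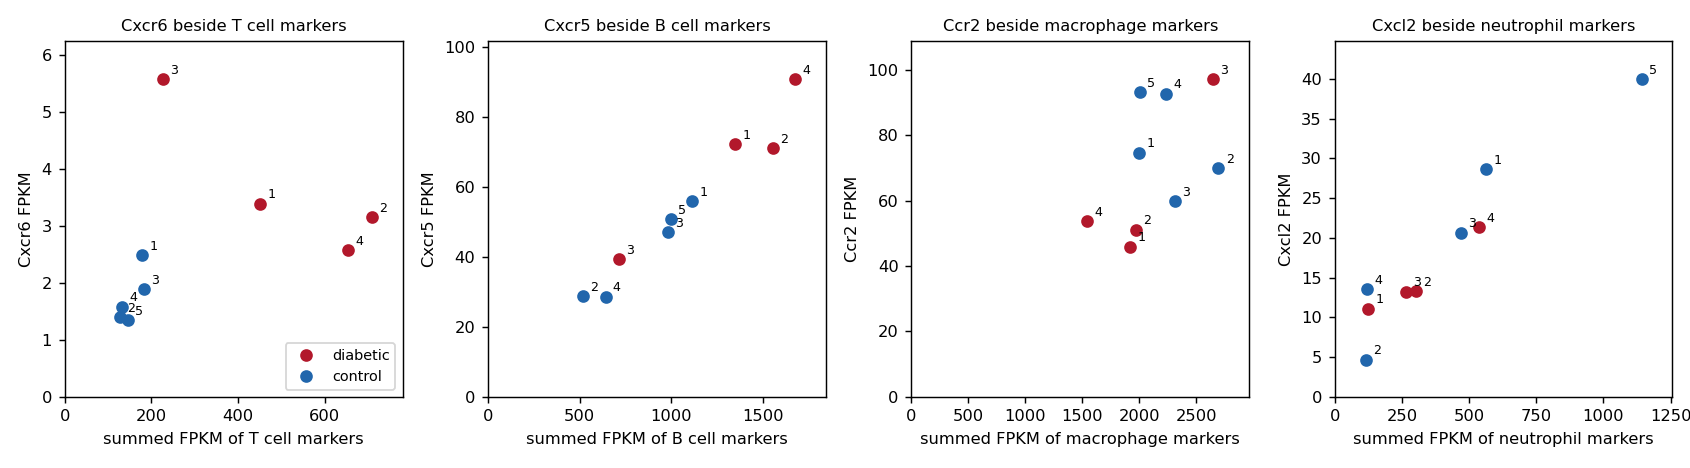
FPKM of Cxcr6, Cxcr5, Ccr2 and Cxcl2 in each sample against the summed FPKM of T cell, B cell, macrophage and neutrophil markers, with diabetic samples in red, control samples in blue and the replicate number beside each point. Cxcr5 is higher where the B cell marker sum is higher, though not in exact order. It is 28.7 FPKM in control 2, with the lowest sum, and 90.6 FPKM in diabetic 4, with the highest. The highest Cxcr6 value belongs to diabetic 3, the diabetic sample with the lowest T cell marker sum.

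The other 23 members, 15 ligands and 8 receptors, stayed under the filter. The highest value of any of them was 1.50 FPKM, Ccl25 in control 2. Ackr2, the decoy receptor for inflammatory CC ligands, was the highest receptor among them, at 0.960, 1.29, 0.778 and 0.875 FPKM in diabetic 1 to 4, against 0.555, 0.512, 0.604, 0.486 and 0.936 FPKM in control 1 to 5. Ccr9, a gut-homing receptor, had 214 reads over the diabetic and 118 over the control libraries, and Ccr4 had 61 and 27. Of these 23 genes, 9 ligands and 3 receptors had fewer than 10 reads in every library, among them Ccl26, Ccl27a, Ccl27b, Ccl28, Cxcl17, Ccr8 and Ccr10. No change in such genes was detectable at this depth.

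Other genes of the chemokine system were read from a list. Of 11 genes outside the naming rule, 10 were tested and 1 passed (10%, against 4.76% of all genes tested). The gene that passed was the protease Dpp4, which trims the ends of several chemokines. It had 5.89 ± 1.09 FPKM in diabetic samples (SD, n = 4) and 3.21 ± 0.410 FPKM in control samples (SD, n = 5), a log2 fold change of 0.70 (SE 0.12, adjusted p = 0.015, limma). Of 48 genes of chemokine receptor signalling, 47 were tested. Of these, 2 passed with higher and 3 with lower diabetic values. That is 10.6%, against 4.76% of all genes tested (2.68% called higher and 2.08% called lower). The log2 fold changes of the 47 had a median of -0.13, against -0.013 for all genes. Pik3r6, a regulatory subunit of the phosphoinositide 3-kinase gamma that Gi-coupled receptors activate, fell to 12.8 ± 1.59 FPKM in diabetic samples (SD, n = 4), against 20.5 ± 1.16 FPKM in control samples (SD, n = 5), a log2 fold change of -0.65 (SE 0.10, adjusted p = 0.0088, limma). Arrb1, beta-arrestin 1, had 8.69 ± 0.407 FPKM in diabetic samples and 13.3 ± 2.06 FPKM in control samples (SD, n = 4 and 5; adjusted p = 0.025, limma). Prkcd, a protein kinase C, had 71.6 ± 7.38 FPKM in diabetic samples and 96.5 ± 8.30 FPKM in control samples (SD, n = 4 and 5; adjusted p = 0.049, limma).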

How the data were processed

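The authors deposited FPKM values, reads scaled by gene length and library depth, for 41096 genes in 9 samples, per the file headers. No source used here gives the aligner, counter or strand setting. GRCm38 and mm10 are named in the submitters' processing notes, while gene identifiers are of the C57BL/6NJ strain, so positions are printed as the table gives them. All 9 columns matched sample titles (0 unmatched). FPKM times gene length gave whole reads (100% of values within 0.05 of a whole number), scaled by divisors that match median-of-ratios size factors. Reads cannot be told from PCR copies.

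A gene was tested where its FPKM reached 1 in 4 or more samples. limma 3.58.1 (R 4.3.3), with trend and robust moderation and group as the only factor, was run on log2(FPKM + 1), two-sided, and genes were called at a Benjamini-Hochberg adjusted p below 0.05 over all genes. This scale understates changes of low genes. The fit was tested on simulated data. Members that passed or averaged at least 10 FPKM were described by rule, and the others named were chosen after their values were seen. Members and lists were chosen with earlier results of these data known. Grk2, Grk3 and Lyn (signalling), Lyz2 (macrophage) and Ly6c2 (monocyte) matched no name in the table. Alternatives were another pseudocount, other filters, TPM rescaling, quantile normalization, sample weights, voom on whole reads, the replicate number as a block, and leaving out each sample. Some genes are counted in the totals but not reported here by name.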

Additional observations from a re-analysis of the deposited data

Results flagged for a closer look

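In each group the highest or lowest sample of every tested member was set against the rest of its group by Dixon's ratio. Of 52 groups 6 were flagged, and chance flags about 1 in 20. Diabetic 3 was far above the other diabetic samples for Ccl8, at 71.1 FPKM with the next at 23.6 FPKM, and for Ccr2, at 97.1 FPKM with the next at 53.7 FPKM. Diabetic 4 was far above them for Cxcr4, at 191 FPKM with the next at 134 FPKM, and far below for Ccl3, at 37.2 FPKM with the next at 51.7 FPKM. Diabetic 1 was far above for Ccl22, at 14.4 FPKM with the next at 10.4 FPKM. Control 3 was far below the other control samples for Ccl9, at 684 FPKM with the next at 993 FPKM. No explanation of these samples was tested.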

How the results depend on the processing

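The count of all genes called, 533, was 183 with no filter, 1304 with sample weights, 62 with the replicate block and 115 to 1126 when 1 sample was left out. The count of ligands called higher, 0, was 1 with the replicate block (Ccl12, adjusted p = 0.046, limma) and 1 with the 6 left-out names; that of ligands called lower, 0, was 1 with sample weights (Cxcl14) and 0 to 1 when 1 sample was left out. The count of receptors called higher, 1, was 0 with no filter, with TPM rescaling, with quantile normalization and with the replicate block, 3 with the 6 left-out names, and 0 to 2 when 1 sample was left out. That of receptors called lower, 0, was 1 with sample weights and 0 to 1 when 1 sample was left out. The adjusted p of Cxcr6 (limma) was 0.10 with no filter, 0.055 with TPM rescaling, 0.058 with quantile normalization and 0.11 with the replicate block, and 0.042 with voom.

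Signs changed in 9 of the 26 tested members, none of them called. Ccr1 was -0.0030 with TPM rescaling and -0.0036 with the replicate block, Cxcl16 0.023 with quantile normalization and 0.0044 with the block, Cxcl2 0.014 and Cxcl10 0.061 with the block. With sample weights Ccl4 was -0.039, Cxcl13 -0.029 and Cxcl1 -0.070. When 1 sample was left out, Ccr1 ran from -0.12 to 0.16, Ccl3 from -0.13 to 0.074, Cxcl16 from -0.16 to 0.090, Ccl4 from -0.020 to 0.21, Cxcl13 from -0.33 to 0.42, Cxcl2 from -0.70 to 0.014, Ccl17 from -0.14 to 0.088, Cxcl1 from -0.10 to 0.21 and Cxcl10 from -0.15 to 0.075. The cause was not tested. The labels give no pairing of the samples by replicate number. Deviations of same-numbered samples correlated at 0.023, 0.16, -0.26 and -0.18, and 1 of 4 diabetic samples correlated best with its own number. Whether same-numbered samples shared a day or batch was not tested. Control 5 has no partner in the fit with the replicate block. With the filter lowered to 0.3 FPKM, 34 members were tested and Cxcr6 alone was called. With no filter, 47 were tested and Cxcr6 lost its call. The receptor median over these larger sets was 0.29 and 0.13.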
